A study of Homo sapiens with 6 samples.

Results

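The comparison described here set HLE cells carrying the ZNF281 shRNA named kd.1 against HLE cells carrying a control shRNA, over all named genes. It used 4 of the 6 RNA-seq libraries of the series, 2 of kd.1 and 2 of control (Con). The 2 libraries of a second ZNF281 shRNA, kd.2, which targets another site of the coding region, served as a side check. HLE is an established human hepatocellular carcinoma cell line. The shRNAs were delivered by lentivirus at a multiplicity of infection of 10, and the cells were selected in puromycin for 7 days to give lines that express the shRNA constitutively. Each group is therefore 1 selected line, and a difference between the lines cannot be told apart from the effect of the shRNA. The labels do not say whether the duplicates of a line were separate cultures, and every p-value below reflects nothing more than how far these libraries spread, which may be technical. Replicates 1 and 2 of a group are called its first and second library.

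ZNF281 is a zinc finger transcription factor of the GLI-Krüppel type that binds GC-rich promoters, acts as a repressor or an activator depending on the gene, and has been tied to stem cell maintenance, epithelial-mesenchymal transition and the DNA damage response. Several of the programmes described below have known regulators. ATF4 is the transcription factor of the amino acid response and binds joined C/EBP and ATF sites, often in the promoters of amino acid enzymes and aminoacyl-tRNA synthetases. Genes of late cell cycle are switched on in G2 through a CHR element, TTTGAA, often near CCAAT boxes, and p53 acts on many of them indirectly.

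Short promoter stretches are shown first because they hold the letters that the ATF4 and mitotic results below refer to. Each is 30 bases of the gene's own strand, 5′ to 3′, from the RefSeq promoter table for GRCh38.p14, which covers 250 bases before to 50 after the start of a gene. Capitals mark the match to TGATGNAA (the composite ATF4-type element), read on either strand so that some appear as its reverse complement.
ASNS, chr7:97872458-97872487, minus strand: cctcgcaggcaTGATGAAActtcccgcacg
CHAC1, chr15:40953251-40953280, plus strand: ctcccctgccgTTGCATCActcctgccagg
CARS, chr11:3057407-3057436, minus strand: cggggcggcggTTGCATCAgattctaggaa
MARS, chr12:57488053-57488082, plus strand: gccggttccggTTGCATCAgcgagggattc
TARS, chr5:33440956-33440985, plus strand: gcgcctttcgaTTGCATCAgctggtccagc
AARS, chr16:70289675-70289704, minus strand: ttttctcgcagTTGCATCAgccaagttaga
In the next 4, from mitotic genes, capitals mark TTTGAA or its reverse complement.
CCNB2, chr15:59105105-59105134, plus strand: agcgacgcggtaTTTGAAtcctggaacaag
NUF2, chr1:163321958-163321987, plus strand: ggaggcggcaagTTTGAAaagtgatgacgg
CENPA, chr2:26786026-26786055, plus strand: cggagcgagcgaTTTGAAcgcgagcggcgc
CKS2, chr9:89311154-89311183, plus strand: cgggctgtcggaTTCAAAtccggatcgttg

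Values were taken as FPKM (fragment number divided by transcript length and by library size). A difference is given as log2 on the log2(FPKM + 0.1) scale with its standard error from limma. A gene was called when its Benjamini-Hochberg adjusted p, over the 10851 genes that reached 1 FPKM in 2 or more of the 6 libraries, was under 0.05. FPKM summed to between 512672.6 and 575886.9 per library, and the depth in reads is unknown. The control duplicates were less alike than the kd.1 duplicates: over tested genes, log2 differences within the pair had an SD of 0.245 in control and 0.147 in kd.1. Although the line comes from a hepatocellular carcinoma, 25 of the 32 hepatocyte genes in the table were under 1 FPKM in every library. APOA1, a liver apolipoprotein, was listed at 0.05 FPKM or less in the control and kd.1 libraries.

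Transcript length moved with the control duplicates, and this bears on every group of short or long genes below. Among 386 genes whose longest coding transcript is under 1 kb, the second control library was above the first by a median of 0.258 (log2), and among 848 genes of 8 kb or more it was below by a median log2 difference of -0.197. In the kd.1 duplicates the same medians were 0.023 and 0.026. The kd.1 minus control median ran from -0.175 in the shortest to 0.157 in the longest genes. Over the 4 pairs of 1 kd.1 and 1 control library, the median of the shortest genes lay between -0.329 and -0.0249. Of the shortest genes 23.3% were called lower in kd.1, and of the longest 6.25%. The part of this length trend in single calls was addressed by removing each library's trend on length. Counts with the trend removed are given below for some lists only, and they differed in other lists too. With it removed, the NRF2 list had 15 risen and 1 fallen, against 11 and 2 in the main fit. The ATF4 list had 22 and 3 against 19 and 2, and the G2 and mitosis list 1 and 18 against 0 and 16.

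**Figure D1:**
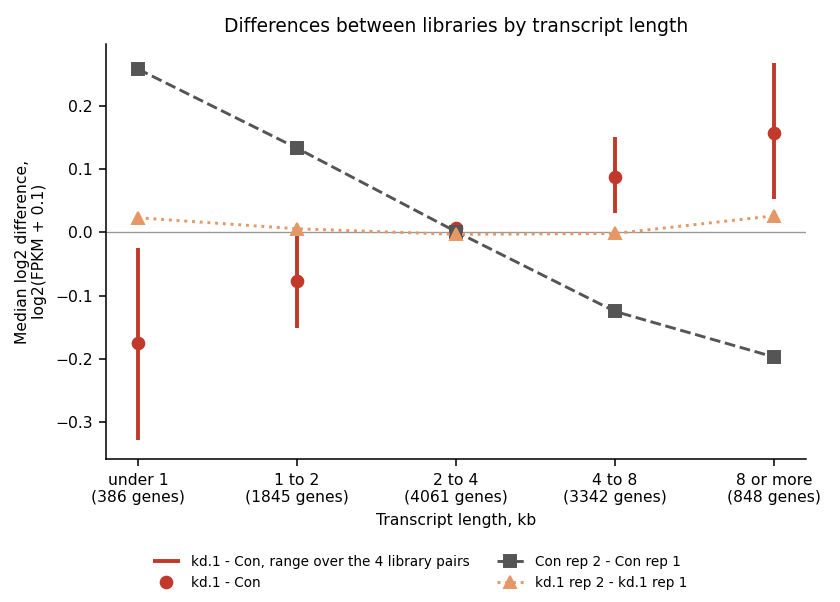
Median log2 difference, log2(FPKM + 0.1), on the vertical axis, against transcript length in kb in 5 classes with the number of genes in each. Red points are kd.1 minus control with bars for the range over the 4 library pairs, grey squares are control replicate 2 minus replicate 1, and orange triangles are kd.1 replicate 2 minus replicate 1. The control duplicates slope from 0.258 to -0.197, while the kd.1 duplicates stay between -0.00326 and 0.0261.

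ZNF281 transcript itself was at 9.52 and 8.43 FPKM in the control libraries and at 4.35 and 4.71 FPKM in the kd.1 libraries. Both kd.1 libraries lay below both control libraries. The difference was -0.97 ± 0.09 on the log2 scale (limma, adjusted p = 0.000249), 1.96-fold lower. In kd.2 it was at 4.37 and 4.47 FPKM, so that both lines had lost about the same amount of transcript, with a difference of 0.03 between them (adjusted p = 0.805). The closest paralogue of ZNF281, ZNF148, was at 5.53 and 4.74 FPKM in control and 6.7 and 6.63 in kd.1, a rise of 0.37 ± 0.09 (adjusted p = 0.0191). That call did not hold without the first kd.1 library (adjusted p = 0.108) or the second (adjusted p = 0.102).

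In kd.1 1712 genes rose and 1454 fell, which is 15.8% and 13.4% of the 10851 tested and the background for each list below. The changes were mostly small: 373 risen and 332 fallen genes moved at least 1.5-fold, and 78 (0.719% of tested genes) and 89 (0.82%) at least 2-fold. In 65.6% of tested genes both kd.1 libraries lay beyond both control libraries, above them in 35.5% and below them in 30.1%, so groups that do not overlap are common here. In these bulk libraries fewer cells of a kind and less RNA per cell cannot be told apart. Leaving out the first kd.1 library left 645 risen and 655 fallen genes, and leaving out the second kd.1 library left 608 and 647. Leaving out the first control library gave 3015 and 2492. Scaling every library to the same FPKM sum gave 1889 risen and 847 fallen, a risen share of 69.0% against 54.1%. The direct comparison of the lines called 20.3% of genes higher and 11.9% lower in kd.1 than in kd.2. This test alone shows what differs between the shRNA lines, because each line's difference from control rests on the same 2 control libraries.

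The genes that rose most included secreted, keratin and membrane protein genes. ANXA10, an annexin of gastric epithelium, went from 0.23 and 0.18 FPKM in control to 3.18 and 3.56 in kd.1, a rise of 3.51 ± 0.16 (adjusted p = 9.09e-06). KRT17, a keratin of basal and activated epithelium, went from 213.15 and 224.49 to 891.35 and 1148.87 FPKM, a rise of 2.21 ± 0.11 (adjusted p = 1.55e-05). The rule that chose these genes required both kd.1 libraries beyond both control libraries, so that separation was set in advance. AGR2, a protein disulfide isomerase of mucous cells, rose by 1.93 and TFF1, a trefoil peptide of gastric mucus, by 1.63, each from under 1.5 FPKM. TRIM31, a ubiquitin ligase, rose by 1.99 with the kd.1 libraries far apart at 17.56 and 30.9 FPKM, a call that did not hold without the second control library (adjusted p = 0.0588). FXYD3, a regulator of the sodium pump, was at 8.52 and 12.27 FPKM in control and 32.42 and 30.67 in kd.1, a rise of 1.62. AGR2 and FXYD3 were below control in kd.2, at -1.26 and -1.02. TRIM31 was at -0.58 there and was not called (limma, adjusted p = 0.105). PTPN11, the phosphatase SHP2, rose by 1.63 in kd.1 and by 1.86 in kd.2, from 14.19 and 12.2 FPKM in control to 41.28 and 40.46 in kd.1. DNER, a neuronal Notch-type ligand, rose by 2.27 and KIAA0319 by 2.00, both from under 0.5 FPKM. DNER, KIAA0319 and TFF1 were too low to be tested when a kd.1 library was left out.

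The genes that fell most included secreted inflammatory, complement and protease genes. CPA4, a secreted carboxypeptidase, was at 41.54 and 36.79 FPKM in control and 4.69 and 4.95 in kd.1, a difference of -2.99 ± 0.09 (adjusted p = 1.82e-06). GAL, the neuropeptide galanin, was at 147.33 and 181.67 FPKM in control and 46.38 and 48.05 in kd.1, a difference of -1.79, against 0.20 in kd.2. Here too the separation of kd.1 and control libraries was set in advance by the rule. PLAT, tissue plasminogen activator, fell by 1.90 in kd.1 and was 1.09 above control in kd.2. CRYAB, a small heat shock protein, fell by 1.82 and GGT5, a gamma-glutamyl transferase, by 1.94, both to under 1 FPKM. ZBED6CL fell by 1.85 in kd.1 and was at -1.30 in kd.2, a difference between the lines that missed the threshold (adjusted p = 0.054). HOTS, an open reading frame in the H19 locus, was at -1.77, but without stranded counting it cannot be told apart from H19.

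Of 42 genes of the NF-kB and inflammatory list, 28 could be tested, and 13 of these fell while 4 rose. Their median difference was -0.31, against 0.02 over all tested genes, and it lay between -0.34 and -0.24 over the 4 library pairs. CCL2, the monocyte chemokine MCP-1, was at 3.94 and 5.26 FPKM in control and 0.45 and 0.32 in kd.1, so that both kd.1 libraries were under 0.5 FPKM. It was 9.68-fold lower, a log2 difference of -3.28 ± 0.17 (adjusted p = 1.57e-05), and its kd.2 difference was 0.21. SAA1, an acute phase apolipoprotein, was at 3.68 and 5.62 FPKM in control and 0.53 and 0.44 in kd.1, a difference of -3.00 ± 0.20, with kd.2 between them at -1.005. LCN2, the iron-siderophore binding lipocalin, fell by 1.36 in kd.1 and was at -1.26 in kd.2. Regulators of the pathway fell as well. RELB, a subunit of the non-canonical NF-kB dimer, was at 2.9 and 2.56 FPKM in control and 1.37 and 1.65 in kd.1, a difference of -0.82 ± 0.13. NFKBIA, the inhibitor that NF-kB itself induces, was at 66.25 and 64.96 FPKM in control and at 47.31 and 47.75 in kd.1, a difference of -0.46 ± 0.06. ICAM1, a leukocyte adhesion molecule, fell by 0.70 in kd.1 and was 0.50 above control in kd.2. The direction was not uniform among cytokines. IL1A, an alarmin of epithelial cells, rose 3.09-fold from 0.31 and 0.27 to 1.06 and 1.15 FPKM, and was too low to be tested without either kd.1 library. In the direct comparison 14 of the 28 were lower in kd.1 than in kd.2 and 4 were higher, against 11.9% and 20.3% of all genes. The list had, without the first kd.1 library, 12 fallen and 1 risen, and without the second kd.1 library it had 11 fallen and 1 risen.

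C1R, C1S, C3 and CFB of the complement cascade fell, and CD55, which protects cells from it, rose. C1R, a protease of the C1 complex, was at 16.7 and 16.56 FPKM in control and 4.21 and 3.87 in kd.1, a difference of -2.02 ± 0.08 (adjusted p = 7.74e-06). Its partner C1S fell by 1.01, from 47.33 and 46.36 to 24.32 and 22.05 FPKM. C3, the central component, was at 109.61 and 90.38 FPKM in control and 55.06 and 61.52 in kd.1, a difference of -0.77 ± 0.10, and CFB, a protease of the alternative pathway, fell by 1.16. All 4 genes also had lower values than control in kd.2, at -0.86, -0.36, -0.37 and -0.40, and all were lower in kd.1 than in kd.2 (adjusted p = 2.53e-05 for C1R and 0.0181 for C3). CD55, which accelerates the decay of complement convertases, was at 267.61 and 226.39 FPKM in control and 464.06 and 514.0 in kd.1, a rise of 0.99 ± 0.09. Among 14 tested genes of the complement and coagulation list, 6 fell and 4 rose. There were 4 fallen and 4 risen without the first kd.1 library, and without the second kd.1 library the fallen were 4 and the risen 3.

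The interferon response list did not move as a block: of 27 tested members 8 fell and 3 rose, and the median was -0.04. IFITM3, a membrane protein that restricts virus entry, was at 629.75 and 774.46 FPKM in control and 387.32 and 383.54 in kd.1, a difference of -0.86 ± 0.10. IFITM1 fell by 0.74. The IFITM genes are close copies of each other, so fragments may have been shared among them. OAS1, an interferon-induced RNA sensor, moved the other way, from 42.1 and 44.48 to 71.07 and 70.63 FPKM, a rise of 0.71 ± 0.07. Without the first kd.1 library the list had 5 fallen and 2 risen, and without the second kd.1 library it had 6 and 2.

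Genes of amino acid supply rose. Of the 36 genes of the ATF4 and serine synthesis list, 32 were tested, 19 rose and 2 fell, and the median over the fitted differences was 0.33. The medians of the 4 single library pairs all lay slightly below it, between 0.30 and 0.32. The list took 0.4497% and 0.4184% of summed FPKM in the control libraries and 0.597% and 0.6013% in kd.1. PHGDH, the first enzyme of serine synthesis, was at 17.81 and 17.95 FPKM in control and at 37.84 and 35.23 in kd.1, a rise of 1.03 ± 0.06 (adjusted p = 3.57e-05). ASNS, asparagine synthetase, whose promoter element is shown above, went from 38.42 and 42.65 to 75.45 and 70.96 FPKM, a rise of 0.85 ± 0.07. SLC7A11, the cystine importer, went from 11.26 and 10.55 to 31.12 and 22.22 FPKM, a rise of 1.26 ± 0.14, with the kd.1 libraries apart but both well above control. SLC7A5, the large neutral amino acid transporter, rose by 0.68 and CHAC1, which degrades glutathione, by 0.94. STC2, a secreted stress-induced hormone, rose by 1.09 from 1.49 and 1.43 FPKM. ATF4 transcript itself was at 177.2 and 216.09 FPKM in control and 279.74 and 290.38 in kd.1, a rise of 0.54 ± 0.09 (adjusted p = 0.00387), against -0.13 in kd.2. DDIT3, the stress factor CHOP, did not pass the test, with 12.01 and 16.58 FPKM in control and 13.2 and 12.91 in kd.1.

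By role, the amino acid supply genes gave 8 risen of 12 and no fallen, and the serine and one-carbon genes 4 risen of 5. Stress regulators were mixed, with 7 risen and 2 fallen of 15. The list also rose in kd.2, where 13 of the 32 rose and 2 fell, against backgrounds of 15.7% and 22.2%. Its median there was 0.11. The amino acid supply genes gave 8 risen of 12 and no fallen in kd.2 too. ASNS was at 0.42, SLC7A11 at 0.67 and STC2 at 0.90 in kd.2, all called. Compared directly, 14 of the 32 were higher in kd.1 than in kd.2 and 1 was lower, against 20.3% and 11.9% of all tested genes. PHGDH was higher in kd.1 than in kd.2 by 0.89 (adjusted p = 3.91e-05) and ATF4 by 0.67 (adjusted p = 0.00102). Leaving out either kd.1 library left 13 risen and 1 fallen.

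Cytosolic aminoacyl-tRNA synthetases, which charge tRNAs with amino acids, rose in 9 of 20 cases and fell in none. CARS, for cysteine, was at 13.95 and 14.43 FPKM in control and 23.7 and 24.27 in kd.1, a rise of 0.75 ± 0.06 (adjusted p = 0.000129). GARS, for glycine, went from 139.07 and 138.74 to 209.9 and 203.23 FPKM, a rise of 0.57 ± 0.06. MARS rose by 0.45, TARS by 0.45 and AARS by 0.44. In every one of these called genes both kd.1 libraries were above both controls. The same held in 35.5% of all tested genes, so it is no support beyond the calls. The TGATGNAA element was found on either strand in 6 of the 16 synthetase promoters in the table, 37.5%, against 1.49% of 8940 promoters of tested genes. All 6 of these genes rose, as did 2 of the 10 without it. In the ATF4 list it was in 5 of 26 promoters, 4 of which belonged to genes that rose, while 11 of the 21 without it rose. The 6 synthetases include IARS and NARS, which missed the threshold without the first kd.1 library (adjusted p = 0.119 and 0.192) and without the second (adjusted p = 0.0948 and 0.192). The synthetases had 5 risen genes without the first kd.1 library, and 6 without the second. The list moved about as far in kd.2, with a median of 0.19 against 0.14 in kd.1.

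Endoplasmic reticulum chaperone and unfolded protein genes rose in 8 of 28 cases and fell in 1. XBP1, the factor spliced by the sensor IRE1, was at 80.73 and 79.75 FPKM in control and 115.31 and 117.52 in kd.1, a rise of 0.54 ± 0.06. P4HB, a protein disulfide isomerase, rose by 0.34, and HERPUD1, which helps to degrade misfolded proteins, fell by 0.34. Neither passed without the second kd.1 library (adjusted p = 0.105 for P4HB and 0.0731 for HERPUD1). The CCACG letters of the unfolded protein element were in 69.2% of the list's promoters and in 51.2% of all. This list rested on both kd.1 libraries, since 3 rose without the first and 1 without the second, against 13 without the first control library. In kd.2 the median was 0.17 against 0.13 in kd.1.

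NRF2 targets, the antioxidant and detoxification genes, rose in 11 of 29 tested cases and fell in 2. Their median was 0.33, with a wide range of 0.14 to 0.45 over library pairs. The list took 3.093% and 3.279% of summed FPKM in the control libraries. In kd.1 it took 3.539% and 2.906%, on both sides of control. SLC7A11, given above with the ATF4 list, is counted in this list too. TXNRD1, thioredoxin reductase, was at 193.1 and 163.51 FPKM in control and at 343.37 and 260.29 in kd.1, a rise of 0.75 ± 0.13 that missed the threshold without the second control library (adjusted p = 0.0835). ABCC3, an exporter of conjugates, was at 29.34 and 27.65 FPKM in control and at 37.59 and 37.53 in kd.1, a rise of 0.40 ± 0.07, and was at -0.37 in kd.2. The kd.1 libraries stood apart from each other here, as AKR1C1, an aldo-keto reductase with near-identical copies, was at 461.83 FPKM in the first and 303.99 in the second. AKR1C1 missed the threshold without the first control library (adjusted p = 0.178) and without the second (adjusted p = 0.141). AKR1B1, aldose reductase and an abundant member, fell from 4109.82 and 4420.73 to 2643.59 and 2064.31 FPKM, a difference of -0.87 ± 0.13. The list had 6 risen without the first kd.1 library and 15 without the second kd.1 library. Of the 29, 12 were higher in kd.1 than in kd.2 and 1 was lower, against 20.3% and 11.9% of all tested genes. The TGACNNNGC letters of the antioxidant element were in 4 of 20 promoters of the list and in 15.3% of all.

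**Figure D2:**
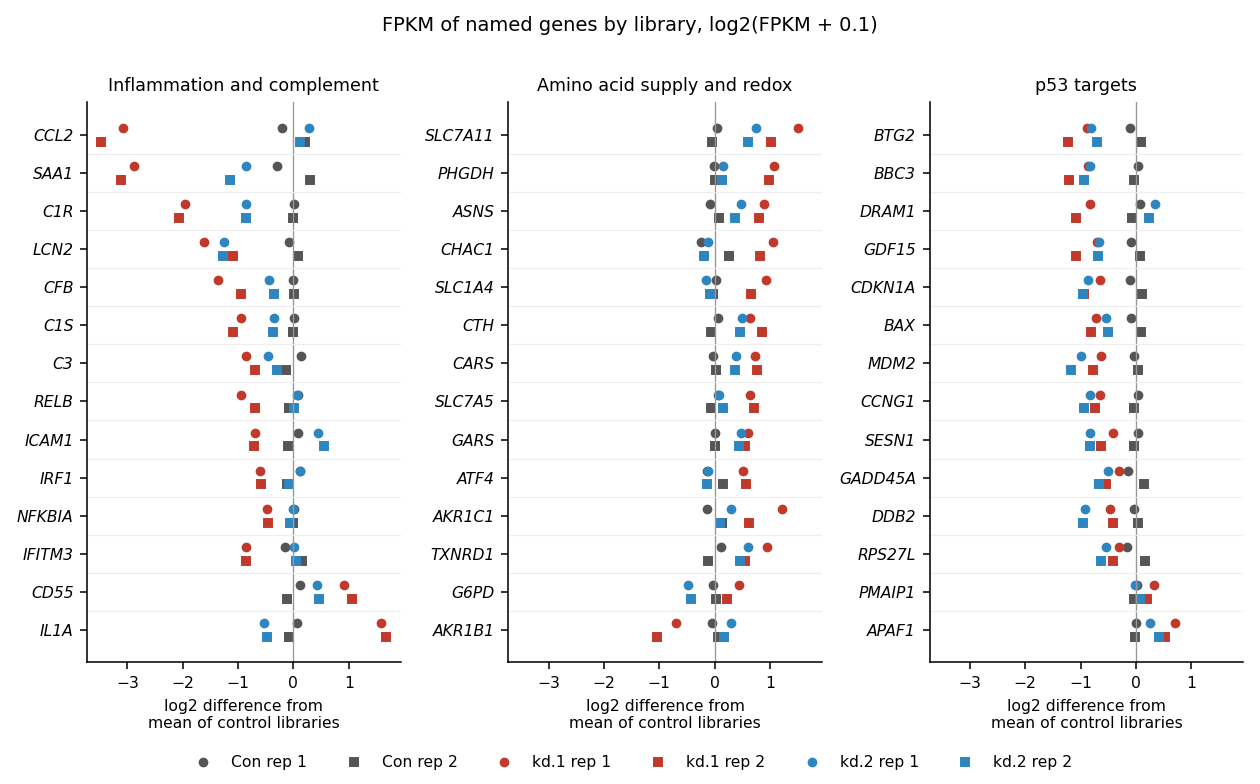
Each row is a gene and the horizontal axis is its log2 difference, log2(FPKM + 0.1), from the mean of the control libraries; circles are replicate 1 and squares replicate 2 of control (grey), kd.1 (red) and kd.2 (blue). In the left panel CCL2 lies near -3.28 in kd.1 and near 0.21 in kd.2; in the middle panel PHGDH lies near 1.03 in kd.1 and near 0.14 in kd.2; in the right panel CDKN1A lies near -0.79 and -0.91.

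Targets of p53 fell. Of 38 genes on the list 35 were tested, 18 fell and 2 rose, and the median was -0.30, between -0.38 and -0.21 over library pairs. Among the 7 that act in cell cycle arrest, 6 fell. CDKN1A, the CDK inhibitor p21, was at 37.52 and 43.92 FPKM in control and 25.88 and 21.24 in kd.1, a difference of -0.79 ± 0.11 (adjusted p = 0.00125). BTG2, an antiproliferative gene, fell by 1.05, and CCNG1, a cyclin induced by p53, fell by 0.69 from 65.94 and 62.89 to 41.19 and 38.47 FPKM. MDM2, which degrades p53, was at 14.12 and 14.79 FPKM in control and 9.32 and 8.38 in kd.1, a difference of -0.70 ± 0.09. BAX, a pro-apoptotic pore former, was at 86.69 and 98.59 FPKM in control and 56.27 and 52.55 in kd.1, a difference of -0.76 ± 0.08. Kd.1 and control libraries did not overlap in any of these called genes, as in 65.6% of all tested genes, which is no support beyond the calls. The exceptions were both apoptosis genes, APAF1, the core of the apoptosome, which rose by 0.61, and PMAIP1, whose rise of 0.27 missed the threshold without the first kd.1 library (adjusted p = 0.215) and the second (adjusted p = 0.0735). In kd.2 the list had 18 fallen and 4 risen, against backgrounds of 22.2% and 15.7%, and a median of -0.27. CDKN1A was at -0.91 there and MDM2 at -1.09. DRAM1, an autophagy gene, parted the lines: it was at 26.04 and 23.57 FPKM in control and 13.85 and 11.72 in kd.1, a difference of -0.95, and was 0.28 above control in kd.2. The list had 13 fallen genes without the first kd.1 library, and 11 without the second.

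Genes of G2 and mitosis were lower by small amounts. None of 39 rose and 16 fell, with a median of -0.14, between -0.20 and -0.13 over library pairs. CCNB2, a mitotic cyclin, was at 75.25 and 76.99 FPKM in control and at 55.61 and 56.12 in kd.1, a difference of -0.45 ± 0.06 (adjusted p = 0.000968). NUF2, a kinetochore protein, was at 27.61 and 27.44 FPKM in control and 20.33 and 21.42 in kd.1, a difference of -0.40 ± 0.06. AURKB, the kinase of the chromosomal passenger complex, fell by 0.40, CKS2, a CDK-binding protein, by 0.44, and CENPA, the centromeric histone, by 0.35. The controls were above kd.1 in each of them, as in 30.1% of all tested genes, which is no support beyond their calls. In direct comparison 16 of 39 were lower in kd.1 than in kd.2 and 1 was higher, against 11.9% and 20.3% of all tested genes. The kd.2 median was 0.04. The TTTGAA letters were in 22 of 33 promoters, 66.7% against 9.5% of all, and 11 of the genes with them fell, as did 3 of the 11 without. CCAAT, on either strand, was in 26 of the 33, 78.8% against 37.3% of all. The count depended on the libraries and the scaling: it was 6 without the first kd.1 library, 5 without the second kd.1 library, and 8 with a common FPKM sum. Without the first control library 19 fell and 4 rose. CDC20, an activator of the anaphase-promoting complex, at -0.25, missed the threshold without the first kd.1 library (adjusted p = 0.0968) and the second (adjusted p = 0.145).

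S phase and replication genes were nearly level, with 3 risen and 7 fallen of 41 and a median of 0.03. PCNA, the polymerase clamp and also a p53 target, was at -0.48, and CCNE2, a G1/S cyclin, at -0.54. Of the 41, 12 were higher in kd.1 than in kd.2 and 1 was lower, against 20.3% and 11.9% of all tested genes. The kd.2 median was -0.13. Without the first kd.1 library the list had no risen and 3 fallen calls, without the second kd.1 library none and 4, and without the first control library it had 10 and 8. CCND1, cyclin D1, which links growth factor signals to the cell cycle, was at 21.98 and 19.99 FPKM in control and 10.66 and 10.69 in kd.1, a difference of -0.97 ± 0.07 (adjusted p = 8.18e-05). In kd.2 it was 0.49 above control, and the lines differed by -1.45 (adjusted p = 8.3e-06).

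Replication-dependent histone genes stood higher, with 15 risen and 3 fallen among the 38 tested of 69 in the table. Most such transcripts lack a poly(A) tail, and whether poly(A) RNA was selected is not given in the sources used here. They are also short. The second control library was above the first by a median of 0.28 in this list, and the kd.1 median of 0.24 ranged from 0.06 to 0.50 over library pairs. With the length trend removed 17 rose and 2 fell. In the main fit HIST2H4A and HIST2H4B, which had the same FPKM in every library, were both counted among the 15 risen. They are not separate measurements. HIST1H2AC, an H2A gene, was at 51.07 and 53.1 FPKM in control and 83.72 and 81.08 in kd.1, a rise of 0.66 ± 0.08. HIST2H2BE, an H2B gene, rose by 0.67 from 9.02 and 8.82 to 14.64 and 13.87 FPKM, and was at -0.10 in kd.2. Of the 38, 11 were higher in kd.1 than in kd.2 and 1 was lower, against 20.3% and 11.9% of all tested genes. Without the second kd.1 library the risen were 9, and without the first control library the fallen were 7.

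Proteasome and splicing genes were lower in kd.1 by small amounts, and most calls needed both kd.1 libraries. Of 40 tested proteasome genes 17 fell and 2 rose, with a median of -0.18. PSMD12, a lid subunit of the regulatory particle, was at 40.22 and 38.64 FPKM in control and 26.68 and 26.4 in kd.1, a difference of -0.57 ± 0.06, and was 0.18 above control in kd.2. PSME1, an activator subunit induced by interferon gamma, was at 91.04 and 101.77 FPKM in control and at 63.62 and 66.84 in kd.1, a difference of -0.56 ± 0.07, and was at -0.59 in kd.2. Of 67 tested splicing factors 19 fell and 3 rose, with a median of -0.13. SRSF9, an SR protein, was at 182.25 and 188.26 FPKM in control and 146.04 and 142.28 in kd.1, a difference of -0.36 ± 0.06. The fallen were, without the first kd.1 library, 2 proteasome and 3 splicing genes, and without the second kd.1 library they were 2 and 4. Without the first control library they were 30 and 33. With the length trend removed they were 13 and 24, and with a common FPKM sum 8 and 13.

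The cytosolic ribosomal protein and respiratory chain genes cannot be read apart from the control duplicates. Their kd.1 medians were -0.19 and -0.17, but the second control library was above the first by a median of 0.28 and 0.26 in these short genes. Only 60 of the 75 respiratory chain genes had a transcript length and were in the fit with the length trend removed. Of 82 ribosomal protein genes 3 fell. Without the first control library the fallen were 79, and without the second control library they were 3. Of 75 respiratory chain genes 8 fell and 1 rose, but 54 fell without the first control library, and with the length trend removed 8 rose and 4 fell. Neither list had a call without the first kd.1 library or without the second kd.1 library.

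Large differences were no more frequent among housekeeping genes than in the whole table, and the few that occurred are given singly. Over 12 housekeeping lists with 607 different tested genes, 96.7% of members were within 0.5 log2 of control, against 89.8% of all tested genes, and 8 members were at least 2-fold away, which is 1.32% against 1.74% of all tested genes. These 8 were chosen after their values were seen. MRPL27, of the large mitochondrial ribosomal subunit, was at 91.16 and 115.18 FPKM in control and 30.5 and 28.36 in kd.1, a difference of -1.80 ± 0.10, whereas the other mitochondrial ribosomal genes apart from MRPS28 lay between -0.653 and 0.321. MRPS28, of the small subunit, was at -1.53. DUT, which removes dUTP from the nucleotide pool, was at 136.24 and 155.31 FPKM in control and 43.54 and 47.05 in kd.1, a difference of -1.68 ± 0.08. TOMM22, a receptor of the mitochondrial import pore, was at 77.3 and 91.03 FPKM in control and at 30.4 and 29.43 in kd.1. MTHFD1, a cytosolic folate enzyme, was at 101.13 and 90.59 FPKM in control and 39.68 and 38.42 in kd.1. EIF1AX, a start codon selection factor, fell by 1.03. EIF4EBP2, a repressor of cap-dependent translation, rose by 1.204, from 7.51 and 6.96 to 17.12 and 16.46 FPKM. TFAM, which packages mitochondrial DNA, rose by 1.31 in kd.1 and by 1.63 in kd.2. Apart from TFAM, where the lines did not differ beyond the threshold (adjusted p = 0.0566), the members moved differently in kd.2, for which MRPL27 was at -0.34, TOMM22 at -0.08 and EIF4EBP2 at -0.06.

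**Figure D3:**
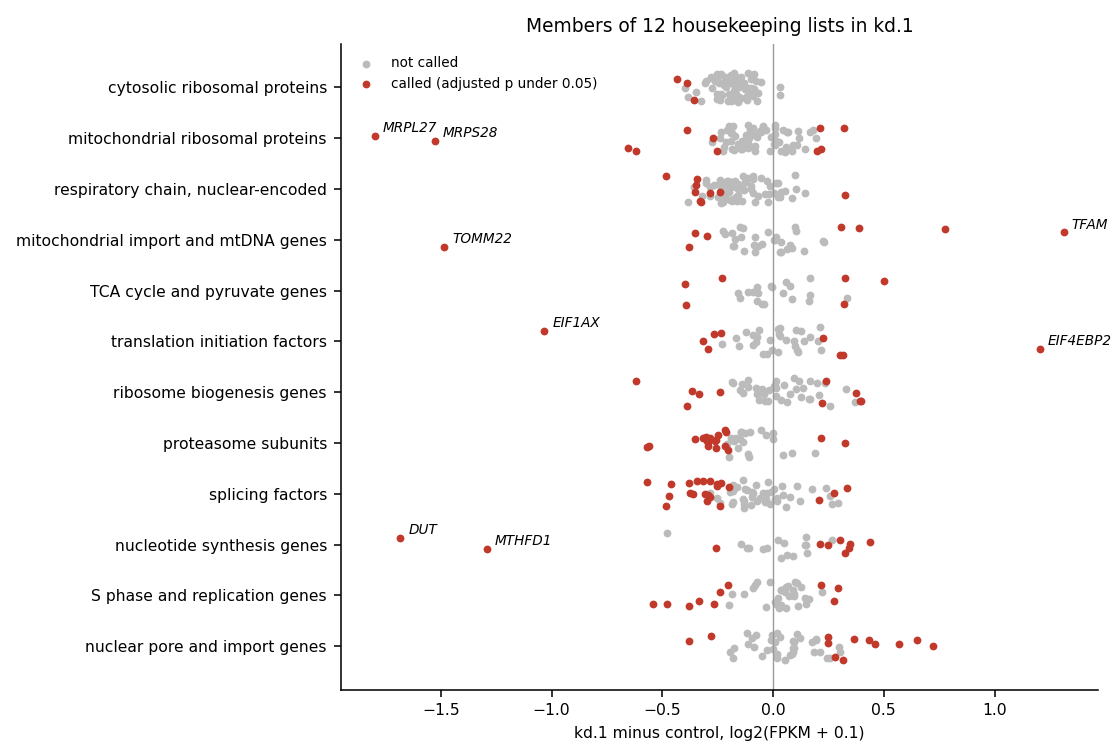
The kd.1 minus control difference, log2(FPKM + 0.1), on the horizontal axis for each tested member of 12 housekeeping lists; red points were called (adjusted p under 0.05) and grey points were not, and vertical scatter within a list only separates points. The named members stand at least 2-fold away from control, from -1.80 for MRPL27 to 1.31 for TFAM.

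Growth factor and MAPK genes moved both ways. Of 44 tested members of the EGF receptor and MAPK list 14 fell and 6 rose. Among ligands and receptors 6 of 13 fell and 2 rose, AREG, an EGF receptor ligand, by 0.83 and MET, the hepatocyte growth factor receptor, by 0.20. MET missed the threshold without the first kd.1 library (adjusted p = 0.234), the second (adjusted p = 0.164) or the second control library (adjusted p = 0.0657). Differences between the roles were not tested. AXL, a receptor tyrosine kinase, was at 16.43 and 15.81 FPKM in control and 8.27 and 7.8 in kd.1, a difference of -0.996 ± 0.07 (adjusted p = 7.04e-05). Among cascade genes 4 of 16 rose and 3 fell. MAP2K1, the kinase MEK1, rose by 0.46 and NRAS by 0.59. Each had both kd.1 libraries above both controls, as did 35.5% of all tested genes. None of the 15 feedback genes rose and 5 fell. SPRED1, an inhibitor of RAS activation, was at 3.71 and 3.09 FPKM in control and 1.88 and 1.84 in kd.1, a difference of -0.83 ± 0.12, and DUSP5, a nuclear ERK phosphatase, fell by 0.63. In kd.2 these were at 0.09 and 0.20. Compared directly, 16 of 44 were lower in kd.1 than in kd.2 and 2 were higher, against 11.9% and 20.3% of all tested genes. The fallen were 7 without the first kd.1 library and 8 without the second kd.1 library, and without the first control library the risen were 13.

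Immediate early genes went both ways, with 6 risen and 5 fallen of 22. FOS was at 4.42 and 4.06 FPKM in control and 2.58 and 2.55 in kd.1, a difference of -0.70 ± 0.09, and EGR1, a zinc finger factor induced by ERK, fell by 0.74. NR4A2, an orphan nuclear receptor, rose by 1.250, from 4.05 and 3.43 to 8.11 and 9.99 FPKM. Targets of YAP, the effector of the Hippo pathway, fell in 8 and rose in 2 of 19 cases. Of the 19, 8 were lower in kd.1 than in kd.2 and 3 were higher, against 11.9% and 20.3% of all tested genes. AMOTL2, a junction protein that binds YAP, was at 19.05 and 18.59 FPKM in control and 13.37 and 13.75 in kd.1, a difference of -0.47 ± 0.07, while AMOTL1 rose by 0.89. The YAP list had 3 fallen without the first kd.1 library and 2 without the second kd.1 library. The immediate early list had 3 risen without either of these, with 5 and 3 fallen.

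Both BMP2 and BMP6, secreted ligands of the BMP branch, rose. BMP2 was at 8.77 and 8.22 FPKM in control and 21.11 and 23.59 in kd.1, a rise of 1.38 ± 0.08 (adjusted p = 2.39e-05). BMP6, which in liver signals to hepcidin, was at 4.68 and 4.26 FPKM in control and 13.48 and 13.88 in kd.1, a rise of 1.59 ± 0.08. Both were higher than in kd.2, where they were at 0.09 and 0.50. TGFB3, a ligand of the other branch, fell by 0.60 in kd.1 and was 1.00 above control in kd.2. In the whole TGF-beta and BMP list 3 rose and 6 fell of 28, and without the first kd.1 library the fallen were 2. Among 24 tested WNT pathway genes 4 rose and 4 fell. FZD10, a WNT receptor, went from 3.7 and 3.38 to 11.47 and 13.1 FPKM, a rise of 1.76 ± 0.10, and LGR4, a receptor for R-spondins, rose by 0.94. FZD2 fell by 0.91. Without the first control library the WNT list had 11 risen, without the first kd.1 library it had 2, and without the second kd.1 library it had 2 fallen.

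The simple keratin pair of the liver lineage, KRT8 and KRT18, fell while 3 other keratins rose. KRT8 was at 1309.33 and 1315.07 FPKM in control and 592.86 and 645.04 in kd.1, a difference of -1.09 ± 0.08 (adjusted p = 7.86e-05). Its obligate partner KRT18 moved with it, from 1123.3 and 1178.97 to 499.36 and 547.19 FPKM, a difference of -1.14 ± 0.08. KRT7, a keratin of ducts, rose by 0.58, from 454.04 and 482.54 to 685.3 and 716.58 FPKM. Together with KRT17 and KRT80 these are the 5 of 9 tested keratins that were called, and each was called without any one library. In kd.2 KRT8 and KRT18 were both at -0.17, and the lines differed by -0.92 and -0.97.

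Junction genes changed in both directions. CLDN7, a claudin of tight junctions, was at 13.85 and 14.78 FPKM in control and 25.76 and 33.05 in kd.1, a rise of 1.02 ± 0.11, and was at -0.94 in kd.2, a difference between lines of 1.96 (adjusted p = 1.31e-05). CLDN12 fell by 0.80 and PARD6B, a polarity adaptor, by 1.17. Of 24 tested tight junction and polarity genes 3 rose and 6 fell, and without the first control library 6 rose and 4 fell. Among desmosome genes 4 of 7 rose and none fell. In kd.2 3 of the 7 rose and none fell, and none was called different between the lines. DSP, desmoplakin, was at 29.39 and 22.99 FPKM in control and 42.35 and 45.25 in kd.1, a rise of 0.75 ± 0.11. Among adherens genes 3 of 14 rose and 6 fell, with NECTIN2, a cell adhesion molecule, at -0.60. The desmosome and adherens genes together had 7 risen and 6 fallen, 1 and 4 without the first kd.1 library, and 2 and 2 without the second kd.1 library. Without the second control library there were 6 risen and 9 fallen.

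Of 22 mesenchymal and EMT genes 12 were tested, 5 fell and only SNAI2 rose, with a median of -0.35. The list in kd.2 likewise had 5 fallen and 1 risen, with a median of -0.31. CALD1, caldesmon, was at 39.16 and 38.84 FPKM in control and 12.85 and 12.39 in kd.1, a difference of -1.62 ± 0.06 (adjusted p = 7.74e-06), against -0.12 in kd.2. TWIST2 was at 17.4 and 19.12 FPKM in control and 11.22 and 9.91 in kd.1, a difference of -0.78 ± 0.08. SNAI2, the repressor Slug, went the other way, from 1.34 and 1.07 to 3.36 and 4.05 FPKM, a rise of 1.55 ± 0.15, and was at -0.55 in kd.2. VIM, vimentin, did not pass the test, with 339.04 and 350.14 FPKM in control and 325.18 and 339.08 in kd.1. In the contractile and SRF list 9 of 23 fell and 1 rose. MYLK, myosin light chain kinase, fell by 1.37 and ACTA2, smooth muscle actin, by 0.88, close to their kd.2 differences of -1.32 and -1.02. The contractile list had 4 fallen without the first kd.1 library and 4 without the second kd.1 library.

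Among matrix genes the calls leaned up for basement membrane and collagen genes and down for proteoglycan genes. The median of the proteoglycan list was -0.03, and it lay between -0.12 and 0.04 over library pairs. COL15A1, a collagen of basement membrane zones, was at 5.68 and 4.07 FPKM in control and 15.11 and 19.04 in kd.1, a rise of 1.80 ± 0.16. LAMA3, a laminin-332 chain, went from 2.72 and 2.56 to 5.64 and 6.27 FPKM, a rise of 1.14 ± 0.10. Of 23 tested basement membrane and collagen genes 8 rose and 3 fell. In direct comparison 12 were higher in kd.1 than in kd.2 and 2 were lower, against 20.3% and 11.9% of all tested genes. These are long genes, and the second control library was below the first by a median log2 difference of -0.24. The kd.1 median of 0.16 ranged from -0.07 to 0.35 over library pairs, and was -0.03 without the second control library. The risen were 8 with the length trend removed, 4 without the second kd.1 library, and 8 without the second control library. XYLT1, which starts glycosaminoglycan chains, fell by 1.60 and SDC4, a cell surface proteoglycan, by 0.97, from 16.76 and 15.05 to 7.68 and 8.5 FPKM. TIMP3, a matrix-bound protease inhibitor, was at 54.56 and 53.23 FPKM in control and 30.35 and 30.92 in kd.1, a difference of -0.81 ± 0.06. Of the 32 tested proteoglycan genes 8 fell and 4 rose, and without the first kd.1 library 5 fell, without the second kd.1 library 4, and without the second control library 12.

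**Figure D4:**
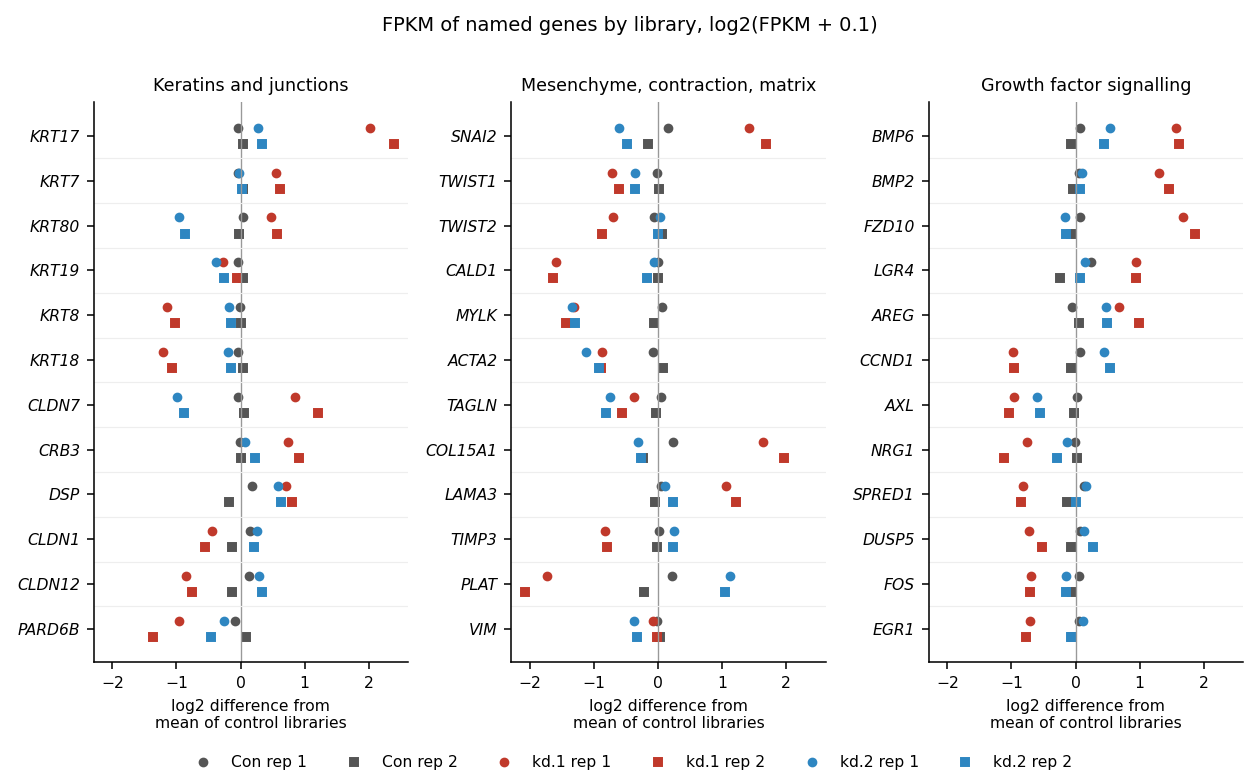
Each row is a gene and the horizontal axis is its log2 difference, log2(FPKM + 0.1), from the mean of the control libraries; circles are replicate 1 and squares replicate 2 of control (grey), kd.1 (red) and kd.2 (blue). KRT17 lies near 2.21 and KRT8 near -1.09 in kd.1, SNAI2 near 1.55 in kd.1 and -0.55 in kd.2, and BMP6 near 1.59 in kd.1 and 0.50 in kd.2.

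Secretory pathway genes rose in 15 of 47 cases and fell in 2. KDELR3, a receptor that returns chaperones to the endoplasmic reticulum, was at 29.01 and 28.7 FPKM in control and 45.91 and 50.21 in kd.1, a rise of 0.73 ± 0.07. SEC24D, a cargo adaptor of the COPII coat, went from 14.4 and 13.14 to 22.25 and 22.41 FPKM, a rise of 0.69 ± 0.07. The same genes were at 0.78 and 0.96 in kd.2. Of the 47, 14 were lower in kd.1 than in kd.2 and 4 were higher, against 11.9% and 20.3% of all tested genes. Lysosome and autophagy genes rose in 13 and fell in 5 of 62 cases. Of the 62, 20 were higher in kd.1 than in kd.2 and 5 were lower, against 20.3% and 11.9% of all tested genes. CTSL, a lysosomal protease, was at 98.0 and 99.76 FPKM in control and 132.63 and 134.69 in kd.1, a rise of 0.43 ± 0.06. GABARAPL1, which sits on autophagosomes, fell by 0.67, from 25.88 and 25.9 to 17.19 and 15.43 FPKM. The risen were, without the first kd.1 library, 7 secretory and 5 lysosomal genes, and without the second kd.1 library they were 6 and 4. Without the first control library they were 23 and 21, with 9 and 13 fallen.

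Iron and metallothionein genes did not move as a block: of 22 tested members 4 rose and 5 fell, with a median of -0.09. Within the metallothionein and zinc genes 3 of 10 rose and 2 fell. None of the list rose without the first kd.1 library or without the second, and 5 and 4 fell. The 2 that fell were the metallothioneins MT2A and MT1X, which bind zinc and copper. MT2A was at 226.92 and 308.44 FPKM in control and 94.76 and 88.96 in kd.1, a difference of -1.53 ± 0.13, and MT1X was at -1.13. S100P, a calcium-binding protein of many carcinomas, rose by 1.27, from 247.45 and 318.6 to 614.94 and 745.01 FPKM. Metallothionein genes are close copies, so fragments may have been shared among them.

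Markers of other cell types were mostly under 1 FPKM, with some abundant exceptions. Of the markers in the table, 6 of 9 endothelial, 8 of 10 leukocyte, 6 of 8 erythroid and 7 of 10 fibroblast genes were under 1 FPKM in every library. The fibroblast sum was between 270.6 and 285.1 FPKM in control and between 282.6 and 302.7 in kd.1, nearly all of it from LUM and DCN, a pair of small matrix proteoglycans. LUM, lumican, did not pass the test, with 210.93 and 195.52 FPKM in control and 202.41 and 194.41 in kd.1. DCN, decorin, was at 72.54 and 73.29 FPKM in control and 98.53 and 86.03 in kd.1, a rise of 0.34 ± 0.07 (adjusted p = 0.011) that missed the threshold without the first kd.1 library (adjusted p = 0.11). COL1A1, a fibrillar collagen chain, rose by 0.98 from 0.58 and 0.55 FPKM and was too low to be tested without either kd.1 library, so that 2 of the 3 tested fibroblast markers rose. In kd.2 DCN was at -0.93. Of the leukocyte markers CD68, a lysosomal membrane protein of macrophages, was at 25.49 and 22.13 FPKM in control and 30.5 and 30.92 in kd.1, a rise of 0.37 ± 0.08 that missed the threshold without the first kd.1 library (adjusted p = 0.0564) and the second (adjusted p = 0.067). The part of these markers in other results was not tested.

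Mesothelial-type genes were expressed in the line, with 5 of 10 tested and 3 fallen. In kd.2 all 5 tested members fell, with a median of -0.87. CALB2, calretinin, was at 6.18 and 7.06 FPKM in control and 1.43 and 1.13 in kd.1, a difference of -2.29 ± 0.13. SNCG, gamma-synuclein, fell by 1.36, from 205.14 and 245.98 to 90.49 and 84.55 FPKM. MSLN, mesothelin, did not pass the test, with 52.65 and 58.72 FPKM in control and 56.13 and 66.08 in kd.1. The summed level of the list was 392.1 and 448.5 FPKM in the control libraries and between 252.3 and 270.6 in kd.1. It was lower still in kd.2, between 196.8 and 214.4. SNCG alone made up most of the control sums and most of their fall in kd.1. The part of this list in other results was not tested. CPS1, the first enzyme of the urea cycle and almost the whole of the hepatocyte sum, was at 291.37 and 260.31 FPKM in control and 450.72 and 466.29 in kd.1, a rise of 0.73 ± 0.08.

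Among lists with at least 9 tested members, which leaves out the hepatocyte, mesothelial-type and other marker lists, medians ran from 0.33 for the ATF4 and NRF2 lists to -0.31 for the NF-kB and -0.35 for the mesenchymal list. By chromosome the medians were small, from -0.0522 on chromosome 19 to 0.0765 on chromosome 13.

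**Figure D5:**
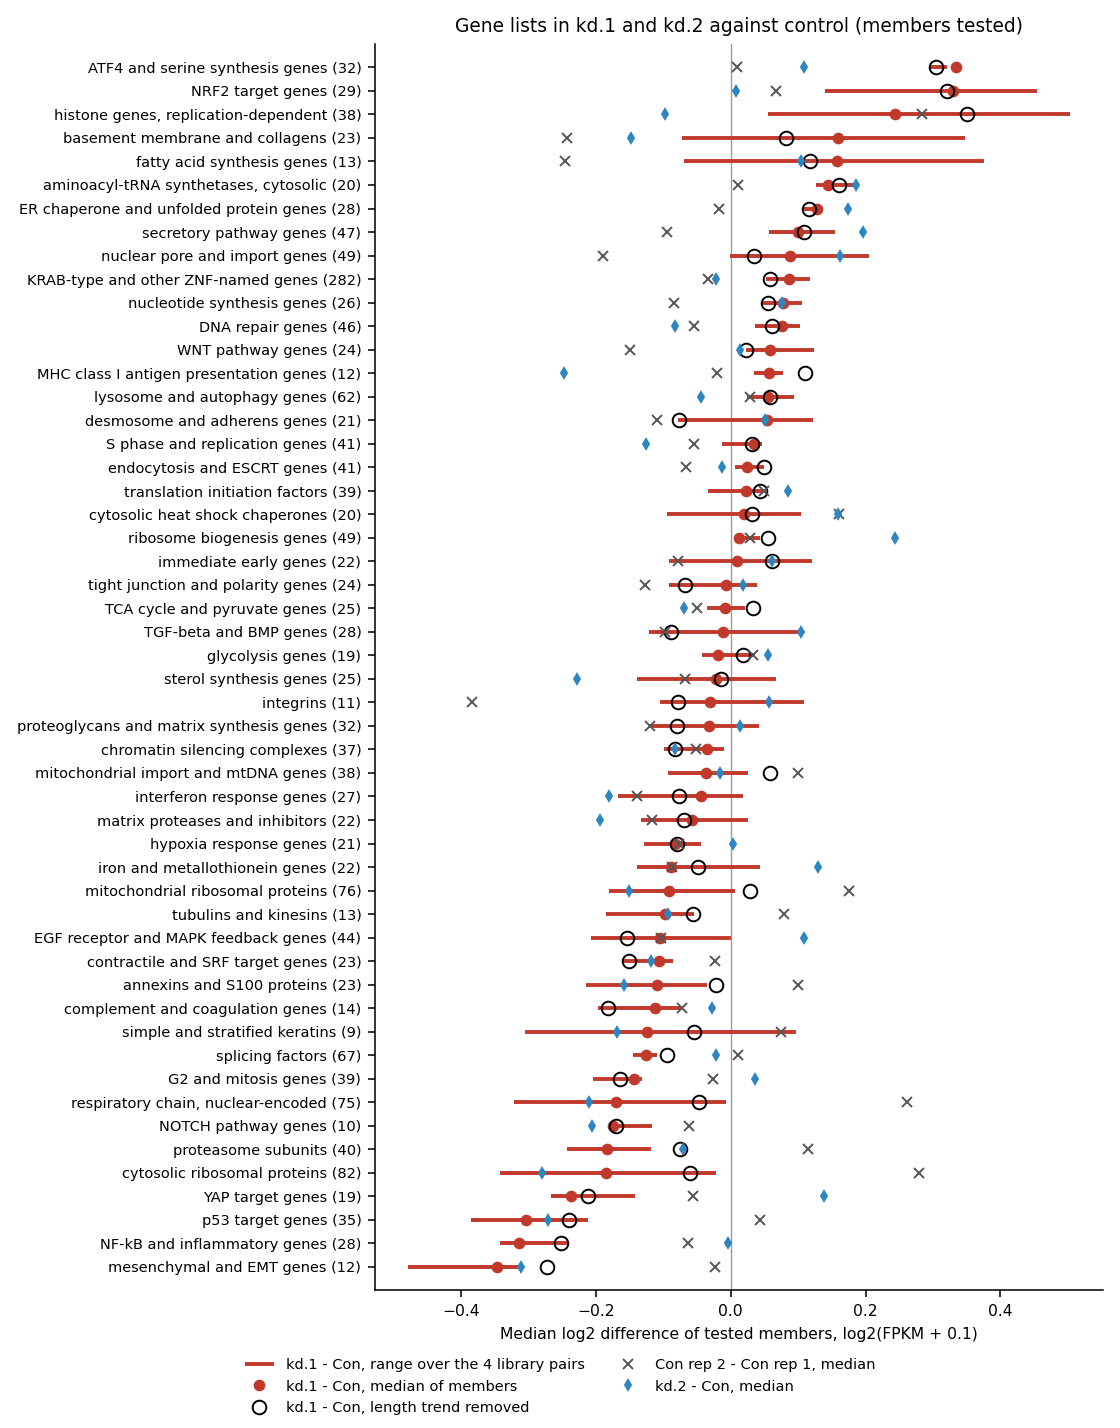
Median difference from control, log2(FPKM + 0.1), on the horizontal axis for each gene list of at least 9 tested members, with the number of tested members in brackets. Red points with bars are kd.1 and its range over the 4 library pairs, open circles are kd.1 with the length trend removed, blue diamonds are kd.2, and crosses are control replicate 2 minus replicate 1. The ATF4 list lies at 0.33 and the p53 list at -0.30 in kd.1, while the crosses of ribosomal and respiratory genes lie at 0.28 and 0.26.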

How the data were processed

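Total RNA of HLE cells was sequenced in duplicate for each of 3 lines. The authors deposited a single table with 21372 features, whose values are here taken as FPKM per gene and library. No label states this unit, which was inferred because the values are not whole numbers. Per the submitters' processing notes, the tools were RSEM 1.2.12, HISAT2 2.0.4 and Bowtie2 2.2.5, and the builds hg38 and GRCh38.p11, with no role or order given. The 1869 features named BGI_novel were left out, and 19503 named genes remained. The 10851 genes reaching 1 FPKM in 2 or more libraries entered a limma 3.58.1 fit (R 4.3.3) of log2(FPKM + 0.1), whose groups each had 1 mean and shared their spread across the 6 libraries, with robust moderation and a trend on intensity, and p-values were adjusted over all tested genes. With 2 libraries against 2, an exact permutation test cannot go below 0.333, so none is given. A test for raw counts had been planned in case the values were counts, and was not used. The script was tested on simulated data. Gene lengths came from GENCODE 29 and promoters from RefSeq (GRCh38.p14).

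The members and the 60 gene lists were chosen with earlier results of these data known. Genes named are ZNF281 and ZNF148, the 12 risen and 12 fallen genes of largest change among called genes at a mean of 1 FPKM or more, the 4 members of smallest p in a list, and others that give a list's roles. The 12 risen and 12 fallen genes also had to have both kd.1 libraries beyond both control libraries. Not every gene this rule allows is named. Lists are described by counts and medians with no test. Some genes are on several lists, so the list counts are not separate. SLC7A11 is on the ATF4 and NRF2 lists. CALD1 is on the mesenchymal and contractile lists, and AXL on the EGF receptor and YAP lists.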

Additional observations from a re-analysis of the deposited data

Results flagged for a closer look

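Of the genes of largest change in kd.1, 22 were flagged because the direct comparison of kd.1 with kd.2 called them different. The values are kd.1 minus kd.2 on the log2(FPKM + 0.1) scale. Higher in kd.1 were AGR2 (3.19), FXYD3 (2.63), TRIM31 (2.56), KIAA0319 (2.21), DNER (2.19), COL15A1 (2.08), FZD10 (1.92), KRT17 (1.9), TFF1 (1.7), ANXA10 (1.6), BMP6 (1.1) and CRYAB (0.72). Lower in kd.1 were CCL2 (-3.48), PLAT (-2.99), CPA4 (-2.15), SAA1 (-1.99), GAL (-1.99), MRPL27 (-1.46), CALB2 (-1.42), C1R (-1.16), GGT5 (-0.89) and PTPN11 (-0.23). CRYAB fell in both lines, by more in kd.2, and PTPN11 rose in both. What in the lines or shRNAs these differences come from was not tested. With 2 libraries in a group, no library could be tested as an outlier.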

How the results depend on the processing

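The main count of 3166 called genes was within 1.5 times under other pseudocounts, filters, moderation and median ratio scaling. It was 2017 (1060 risen, 957 fallen) with the kd.1 and control libraries alone, which have fewer residual degrees of freedom, and with a common FPKM sum the fallen were 847. Leaving out 1 library gave 1255 to 5507 called genes, 608 to 3015 risen and 647 to 2492 fallen. For kd.1 against kd.2 the main 3496 calls became 1685 to 5499. The lone library of a group is then assumed to vary like the others. Of the 3166 calls, 1279 were called in the same direction without kd.1 replicate 1 and 1232 without kd.1 replicate 2, and none changed sign in any setting tried. The length trend removal, chosen after seeing the data, gave 2057 risen and 1693 fallen of 10482 genes. Of 343 values of the 26 genes chosen by size or as targets, 339 kept their call and 4 lost it: ZNF148 in 3 settings (also 0.37 with the kd.1 and control libraries only) and TRIM31 in 1.

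The replicate numbers are shared by the groups but nothing says that they pair the libraries. The deviations of replicate 2 from replicate 1 correlated at 0.022 between control and kd.1, at -0.0874 between control and kd.2, and at 0.183 between kd.1 and kd.2. With a replicate block 1569 genes rose and 1361 fell, 2834 of the 3166 calls remained, and ZNF281 was at -0.97. Tests for counts, listed as alternatives, were not run, because the values were taken as FPKM, a unit that no label states. Depth is unknown, and 2 libraries per line limit all calls of small changes.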
